A study of Mus musculus with 6 samples.

Results

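The chemokines Ccl17 and Ccl22 and the chemokine receptors Ccr4 and Ccr8 were followed through single cells of 6 mice. The 4 genes were taken by symbol from the 32285 genes counted in each cell. Their UMIs (unique molecular identifiers, which count captured RNA molecules once each) were summed per library over cells gated by marker genes, with 13343 of the 51633 cells that passed the filters in the dendritic, macrophage, Treg and CD4 T gates. The other gates (CD8 T, other T, B, NK, monocyte and neutrophil cells) served as a comparison. A gate sum was expressed as CPM, the gene's UMIs scaled to a common total for the cells of that gate and library.

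CCL17 and CCL22 are small secreted proteins that bind the receptor CCR4 and attract T cells that carry it, among them Th2 cells and regulatory T cells (Treg). Dendritic cells that mature and leave a tissue, marked by Ccr7 and Fscn1, are a well-known source of both, as are some macrophages under IL-4 or GM-CSF. CCR8 is a receptor of many tumor Treg, and its ligands in the mouse are CCL1 and CCL8.

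Each of the 6 libraries held the cells of 1 mouse, with no replicate of any group. The groups were control, 2DG (2-deoxy-D-glucose, a sugar analog used in the study to block branched N-glycans), 2FF (a fucose analog that blocks fucosylation), anti-PD-L1 (an antibody against a checkpoint ligand), and the antibody combined with 2DG or with 2FF. According to the methods, all were female C57BL/6 mice, 6 to 8 weeks old at injection, with tumors of KPCA, 1 mouse ovarian cancer line proficient in homologous recombination, in the ovarian bursa. Tumor cells of both 2FF groups had been kept in 2FF for 3 days before injection. After implantation, mice of the 2FF groups also received 2FF by gavage every 2 days. From day 9, 2DG was injected every 2 days and anti-PD-L1 2 times a week for 3 weeks, controls got solvent and rat IgG, and mice were killed on day 30. Comparisons for 2DG and for 2FF share the control and the anti-PD-L1 library.

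The labels give the tissue as lymph node and the series text mentions young and aged mice, whereas the methods describe tumors. Of 7 lymph node genes, Ccl21a, Madcam1, Glycam1 and Ccl19 were nearly absent, with 1, 5, 7 and 13 UMIs in all libraries together. Cr2 and Fcer2a, which B cells carry, had 1279 and 1003 UMIs, and Pdpn had 30170. The epithelial genes Krt18, Krt8 and Epcam had 3109, 2467 and 1466 UMIs. The summed level was 52.6 to 111 CPM per library for the lymph node list and 4.73 to 42.3 for the 7 genes of the ovarian tumor list. Pdpn alone was at 48.6 to 109 CPM. The libraries held 61859753 to 73885214 UMIs and 7703 to 9222 cells that passed. Of 51315 distinct barcodes, 316 occurred in 2 or more libraries, 12 to 27 for each pair. The control library stood apart by its 2946 neutrophils, against a lowest count of 389, and by its 126 CD8 T cells, against a highest count of 1986. Genes that were not used for gating were checked: all 5 were highest in their own gate for mature dendritic cells, plasmacytoid dendritic cells, macrophages and Treg, 4 of 5 for type 1 dendritic cells and CD4 T cells, and 3 of 5 for CD8 T and Cd209a dendritic cells, where Sirpa and Itgam were higher in macrophages.

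All 4 genes are protein-coding. Ccl22 (GRCm38 chr8:94745590-94751699) and Ccl17 (chr8:94810453-94812036) lie on the plus strand with 58753 bases between them, which hold the chemokine gene Cx3cl1 and the pseudogene Gnb1-ps3. Ccr8 (chr9:120092114-120094906, plus strand) and Ccr4 (chr9:114490316-114504916, minus strand) share chromosome 9. The bases before the chemokine genes are shown because both genes were detected in the same dendritic gates but spread differently over them. They are RefSeq sequences of GRCm38.p6, read on the plus strand, with the motifs named after them in capitals. For Ccl17, all 250 bases before the start are printed (chr8:94810203-94810452). For Ccl22, whose RefSeq start lies 94 bases past the gene start used for counting, the 156 bases before the earlier start are printed (chr8:94745434-94745589).
Ccl17: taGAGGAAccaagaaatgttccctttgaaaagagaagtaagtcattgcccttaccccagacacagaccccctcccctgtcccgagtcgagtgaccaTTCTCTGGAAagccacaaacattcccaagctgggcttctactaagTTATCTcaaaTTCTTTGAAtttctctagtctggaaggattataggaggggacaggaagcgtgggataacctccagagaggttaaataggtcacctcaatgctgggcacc
Ccl22: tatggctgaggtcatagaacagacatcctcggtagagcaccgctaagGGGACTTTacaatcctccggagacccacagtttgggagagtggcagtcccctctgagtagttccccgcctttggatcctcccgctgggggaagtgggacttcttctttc
Each motif was searched on both strands of the 250 bases before the RefSeq start, and positions count back from it. The Ccl17 window held 1 match each to TTCNNNNGAA, the palindrome bound by STAT6 (-154 to -145), TTCNNNGAA, bound by other STAT factors (-99 to -91), GAGGAA, the core of PU.1 sites (-248 to -243), and AGATAA, the motif of GATA factors, on the minus strand (-109 to -104). The Ccl22 window held GGGACTTT, the first bases of a kappaB site (-203 to -196), and none of these others. Of 32536 mouse promoters of that length, 5.89% held TTCNNNNGAA, 7.04% TTCNNNGAA, 23.4% GAGGAA, 9.97% AGATAA and 1.2% GGGACTTT. TGANTCA, the AP-1 motif, was in 6.73% of them and in the Ccr4 window (-143 to -137), and AGATAA was also in the Ccr8 window (-239 to -234). TATAAA, in 12.3% of promoters, was in none of the 4. No 2 of these matches overlapped, and a match is a description of letters only.

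Ccl22 was a transcript of mature dendritic cells. In the mature dendritic gate (Ccr7 and Fscn1 with MHC class II, 57 to 108 cells per library), the Ccl22 level was 1418 CPM in control, 1756 in 2DG, 1129 in 2FF, 1308 in anti-PD-L1, 810.4 in 2DG plus anti-PD-L1 and, with 2FF plus anti-PD-L1, 952. The gate held 0.947% of the cells and 54.6% of all 12128 Ccl22 UMIs. In the Cd209a gate, which takes type 2 dendritic cells, Ccl22 was 83.3, 34.4, 11, 49.1, 13.4 and 31.1 CPM in the same order of libraries. In the type 1 gate (Xcr1 or Clec9a) it was 29.2, 92.7, 29.4, 89, 9.92 and 5.68 CPM. The higher values of 2DG and anti-PD-L1 came from few cells, with 50% of the UMIs in 2 and 3 cells and 79 of 217 and 50 of 138 UMIs in 1 cell. Without the cells marked as doublets the type 1 gate had 33.4, 39.5, 32, 42.9, 10.8 and 5.84 CPM of Ccl22. No library of these gates reached the lowest library of the mature gate, and macrophages lay lower still, between 0.988 and 8.6 CPM.

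Within each mouse, Ccl22 was higher in mature than in Cd209a dendritic cells by 5.07 ± 0.77 on the log2(CPM + 5) scale (SD, n = 6 libraries), 33.7-fold, in 6 of 6 libraries. The difference was 5.11 ± 1.0 (34.5-fold) to type 1 dendritic cells and 7.10 ± 0.49 (137-fold) to macrophages, again in 6 of 6. Each had an exact two-sided sign-flip p of 0.0312, the smallest that 6 libraries can give, and 0.0398 after Benjamini-Hochberg adjustment over the 14 tests between populations made for the 4 genes. Cd209a dendritic cells were in turn 2.03 ± 0.78 (4.08-fold) above macrophages, with the same p values. Cd209a and type 1 dendritic cells differed by 0.04 ± 1.31 for Ccl22, higher in 3 of 6 libraries (exact p = 0.969). As background, the share of all tested genes that were higher in every library and at least 2-fold in the mean was 8.52% for mature over Cd209a cells, 9.11% for mature over type 1 cells, 8.14% for mature cells over macrophages, 5.28% for Cd209a over type 1 cells and 3.57% for Cd209a cells over macrophages.

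Ccl22 was detected in most mature dendritic cells. At least 1 Ccl22 UMI was found in 423 of 489 cells (86.5%), from 78% in 2DG plus anti-PD-L1 to 90.2% in 2DG. Free RNA in droplets was gauged by CD8 T cells, of which 0.478% had a Ccl22 UMI, at median depths of 5894 to 8053 UMIs per cell against 8470 to 10911 in the mature gate. With every cell thinned to 1000 UMIs, the share was 41.9% to 58% in the mature gate, 0.799% to 6.02% in the Cd209a gate and 0.7% to 5.77% in the type 1 gate.

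Ccl17 was shared by mature, Cd209a and type 1 dendritic cells. In the mature gate its level was 1006 CPM in control, 1065 in 2DG, 691 in 2FF, 849 in anti-PD-L1, 421 in 2DG plus anti-PD-L1 and 505 in 2FF plus anti-PD-L1. In the Cd209a gate the Ccl17 level was 1295, 580.0, 112, 344, 109 and 166 CPM, and in the control library it exceeded that of the mature gate. The type 1 gate had 329, 443, 155, 638, 13.2 and 12.5 CPM. Without its cells that had a Ccr7, Fscn1 or Mgl2 UMI, that gate had 113, 165, 84, 441, 2.31 and 2.92 CPM of Ccl17. This narrower gate was chosen after the data were seen. Of all 20813 Ccl17 UMIs, the mature gate held 19.8%, the Cd209a gate 15.4% and the type 1 gate 13.7%, so no gate held most of them. Plasmacytoid dendritic cells, 114 in all, had no Ccl17 UMI.

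Mature cells were above type 1 cells for Ccl17 by 2.47 ± 1.82 on the log2 scale (5.52-fold, SD, n = 6) and above macrophages by 4.69 ± 0.88 (25.9-fold), in 6 of 6 libraries each (exact sign-flip p = 0.0312, adjusted p = 0.0398). Against Cd209a cells the Ccl17 difference was 1.31 ± 1.0 (2.48-fold), in 5 of 6 libraries, and missed the threshold (exact p = 0.0625, adjusted p = 0.0729). The control library went the other way, by -0.36. With a wider mature gate, chosen after the data were seen, that difference was 1.07 with 6 of 6 libraries (exact p = 0.0312, adjusted p = 0.0365). Cd209a cells were 3.39 ± 0.87 (10.5-fold) above macrophages in 6 of 6 libraries (exact p = 0.0312, adjusted p = 0.0398) and 1.16 ± 1.72 above type 1 cells in 4 of 6 (exact p = 0.219, adjusted p = 0.236).

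**Figure D1:**
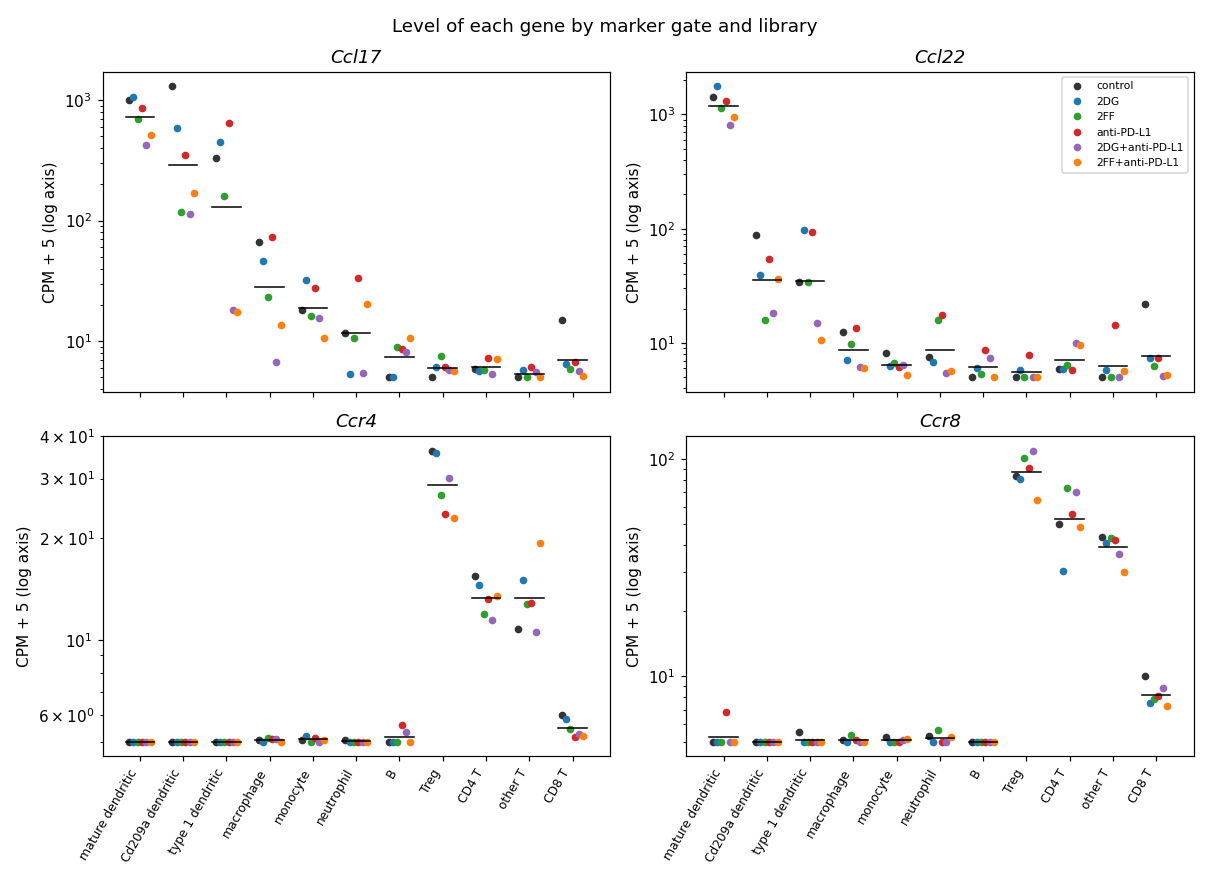
Level of Ccl17, Ccl22, Ccr4 and Ccr8 (CPM + 5, log axis) in 11 gates. Each point is 1 of 6 libraries and the black line is the geometric mean. Ccl22 in mature dendritic cells lies between 810.4 and 1756 CPM, clear of every other gate, while the Ccl17 points of the mature and Cd209a gates overlap and both receptors are high only among T cells.

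Ordered by mean level over the 11 gates with enough cells in every library, both chemokines ran from mature through Cd209a to type 1 dendritic cells. Macrophages, monocytes and neutrophils followed for Ccl17, and neutrophils, macrophages and CD8 T cells for Ccl22. With 6 libraries and adjustment over the 40 steps between neighbours in the orders of the 4 genes, a test of each step could hardly pass and is not read here, and steps between the main gates are tested separately. The step of Ccl22 from mature to Cd209a cells and that of Ccl17 from type 1 cells to macrophages were among those with 6 of 6 libraries in 1 direction.

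Much of the Ccl17 in the mature gate came from few cells, and so did much of the Ccl22. In the mature gate, 58 of 74 cells had a Ccl17 UMI in control (78.4%), 66 of 102 in 2DG (64.7%), 39 of 89 in 2FF (43.8%), 64 of 108 in anti-PD-L1 (59.3%), 23 of 59 in 2DG plus anti-PD-L1 (39%) and 21 of 57 in 2FF plus anti-PD-L1 (36.8%). The share was 0.415% in CD8 T cells. The smallest number of cells that together held 50% of the gate's Ccl17 UMIs was 7, 10, 6, 12, 4 and 2 in the same order, and 1 cell held up to 116 UMIs. For Ccl22 in this gate that number was 9, 14, 13, 16, 9 and 7, and 1 cell held up to 115 UMIs. Counting intervals printed for single libraries below treat UMIs as independent and are therefore narrower than the spread between cells. Thinned to 1000 UMIs per cell, 16.1% to 40% of mature cells, 4.33% to 52.3% of Cd209a cells and 0.836% to 18.6% of type 1 cells kept a Ccl17 UMI.

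The overlap of both chemokines in single cells differed between gates. Among 489 mature cells, 261 had both, 162 only Ccl22, 10 only Ccl17 and 56 neither. Ccl22 was found in 96.3% of cells with Ccl17 and 74.3% of those without. The former were deeper, with a median of 11120 against 8215 UMIs per cell, and the part of depth in this was not tested. In turn, Ccl17 was found in 61.7% of mature cells with Ccl22. The Cd209a gate had the opposite order, with Ccl22 in 32.5% of Ccl17 cells (2.99% of others) and Ccl17 in 77.4% of Ccl22 cells. Ccl22 was found in 38.5% of type 1 cells with Ccl17 and 6.19% of those without, and in 16.5% and 0.838% of macrophages.

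**Figure D2:**
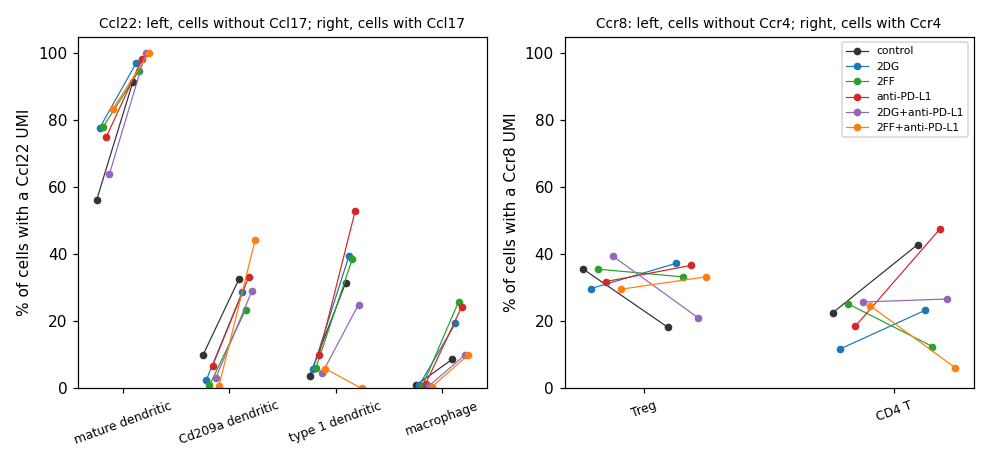
Percent of cells with a Ccl22 UMI among cells without (left) and with (right) a Ccl17 UMI in 4 gates, and with a Ccr8 UMI by Ccr4 in the Treg and CD4 T gates. Ccl22 is at 74.3% and 96.3% in mature dendritic cells and at 2.99% and 32.5% in Cd209a cells, while Ccr8 is at 32.8% and 32.6% in Treg without and with Ccr4.

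Macrophages with Ccl17 were a minority with a set of other genes. Of 7704 macrophages, 188 (2.44%) had a Ccl17 UMI, from 0.71% in 2DG plus anti-PD-L1 to 5.74% in control, and macrophages held 11.9% of the Ccl17 UMIs. In these 188 cells Mgl2, a lectin of alternatively activated macrophages and type 2 dendritic cells, stood at 1141 CPM against 105 in the other macrophages. Their Plet1 was 74.5 against 0.901 CPM and their Ccr7 63.3 against 3.48, while the complement gene C1qa, on which the gate rests, was 2148 against 2480. The macrophage check genes Apoe and Mrc1 were lower in them, at 1712 against 3603 and 831 against 1175 CPM. Clec9a, a gene of the type 1 gate, was higher, at 30.8 against 4.13 CPM. In the Cd209a gate the 200 cells with Ccl17 had 1041 CPM of Mgl2 against 191, 267 of Plet1 against 9.08 and 271 of the lysozyme gene Lyz2 against 1218. Cd209a itself was lower in these cells, at 590.3 against 976 CPM, as was the check gene Clec10a, at 179 against 322. Type 1 cells with Ccl17 had 86.7 CPM of Il12b, a subunit of IL-12, against 14.8, and 201 of Mgl2 against 45.5. These sums were pooled over libraries, which gave unequal parts. Control gave 58 of its 68 Cd209a cells to the 200 with Ccl17, and 69 of its 1203 macrophages to the 188. Over the whole Cd209a gate, control had 1116 CPM of Mgl2, 315 of Plet1 and 122 of Lyz2. The other libraries had at most 684 and 159.7 and at least 313. The part of the library in these contrasts was not tested. The pooled sums describe the cells and were not tested, and mixed droplets among them were not identified singly.

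Maturation genes were higher in the mature gate together with Ccl22. The gate is set by Ccr7 and Fscn1, themselves genes of maturation, so higher levels of other such genes are partly given by the gating. Cacnb3, Socs2 and Il4i1 of the list also served as check genes of this gate. Of 20 maturation genes, 19 had enough counts, and 15 were higher in mature than in Cd209a cells (every library and at least 2-fold in the mean) with 0 lower. Their median log2 difference was 1.79, against -0.13 over all 10125 genes tested. The highest were Cacnb3, a calcium channel subunit (6.89 ± 0.17, SD, n = 6), and Il12b (5.65 ± 0.36), and the lowest were the transcription factor Irf4 (-0.61 ± 0.65) and the costimulatory ligand Icosl (-0.12 ± 0.50), which did not pass. Of 13 other chemokines, 10 were tested, with 2 higher, 6 lower and a median of -1.81. For none of the lists compared between gates is the share of all genes called lower given here. Their counts of lower genes thus have no background. Ccl5, which attracts effector T cells, was higher (5.02 ± 0.92), as was Cxcl16, the ligand of Cxcr6 (1.97 ± 0.34), whereas Ccl4 (-3.01 ± 1.29) and the interferon-induced Cxcl10 (-2.41 ± 0.58) were lower. The gene between the chemokines, Cx3cl1, was at 32.6, 17.7, 15.3, 29.5, 8.77 and 23.4 CPM in the mature gate and at most 6.88 CPM in the Cd209a gate.

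Inducers of the chemokines were compared between the same gates. Of 14 inducers and their receptors, 9 were tested between mature and Cd209a cells, with 0 called higher, where 8.52% of all genes were, 1 lower and a median of -0.30. The lower one was Crlf2, a receptor chain for TSLP (-1.64 ± 0.31), followed by the GM-CSF receptor chain Csf2ra (-0.91 ± 0.29). Stat5a (0.98 ± 0.53) and Csf2rb (0.48 ± 0.46) had the highest differences, above 0 in 6 of 6 libraries without reaching 2-fold in the mean. Il4 had no UMI in either gate.

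**Figure D3:**
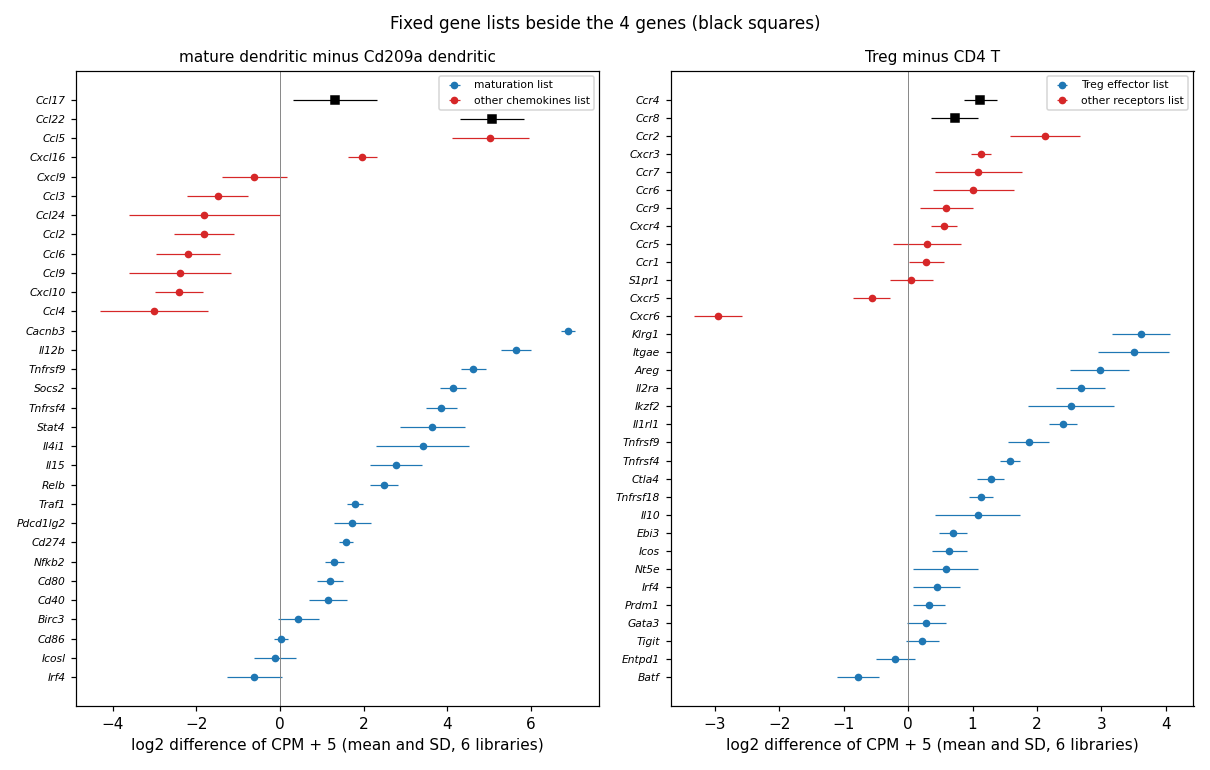
Mean log2 difference over 6 libraries with its SD for genes of the fixed lists, mature minus Cd209a dendritic cells (maturation genes and other chemokines) and Treg minus CD4 T cells (Treg effector genes and other receptors). Black squares are the members. Ccl22 (5.07) lies among the highest maturation genes with Cacnb3 at 6.89, and Ccr8 (0.72) and Ccr4 (1.12) lie below Klrg1 at 3.61.

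Both receptors were found mainly in T cells outside the CD8 T gate. Of Ccr8 there were 2340 UMIs in 1497 cells. Its level in Treg (Foxp3, 84 to 376 cells per library) was 78.2 CPM in control, 75.5 in 2DG, 95.4 in 2FF, 86 in anti-PD-L1, 104 in 2DG plus anti-PD-L1 and 59.5 in 2FF plus anti-PD-L1. In CD4 T cells without Foxp3 the Ccr8 level was 45.1, 25.5, 68.1, 50.7, 65.4 and 43.6 CPM. Treg were the higher in every mouse, but the ranges of the 2 gates overlapped between mice. CD8 T cells had 2.26 to 5.04 CPM of Ccr8, and T cells outside these gates 25.1 to 38.6. A Ccr8 UMI was found in 32.8% of Treg, 20.8% of CD4 T cells, 1.82% of CD8 T cells and 0.104% of macrophages, at median depths of 4972.5 to 6756.5 UMIs in Treg, 5308 to 7177.5 in CD4 T cells and 9091 to 12347 in macrophages. Thinned to 1000 UMIs per cell the shares were 5.64% to 10.2% in Treg and 2.63% to 6.51% in CD4 T cells.

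Ccr4 was sparse, with 549 UMIs in 400 cells over all libraries. In Treg it was at 31.3, 30.7, 21.9, 18.5, 25.2 and 18 CPM, in the order given above, from 17 to 81 UMIs per library. In CD4 T cells Ccr4 was at 10.4, 9.52, 6.89, 8.21, 6.43 and 8.51 CPM, so every Treg library lay above every CD4 T library. The other T gate, T cells not assigned to the Treg, CD4 T or CD8 T gates, had 5.52 to 14.4 CPM of Ccr4. It held 17.5% of the Ccr4 UMIs and 16.1% of the Ccr8 UMIs. Ccr4 UMIs were found in 11.1% of Treg, 4.35% of CD4 T cells and 0.226% of CD8 T cells, and in 1.78% to 2.64% of Treg and 0.717% to 1.32% of CD4 T cells after thinning. No Ccr4 UMI was found in the mature, type 1 and Cd209a dendritic gates, which at 3 counts allows up to 5.26 CPM in the smallest mature library.

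Within mice, Ccr8 was higher in Treg than in CD4 T cells by 0.72 ± 0.36 (1.65-fold, SD, n = 6) and than in CD8 T cells by 3.40 ± 0.26 (10.6-fold). Ccr4 was higher in Treg by 1.12 ± 0.26 (2.17-fold) and 2.40 ± 0.21 (5.26-fold). All held in 6 of 6 libraries (exact sign-flip p = 0.0312, adjusted p = 0.0398). Of all genes tested, 2.00% were higher in every library and at least 2-fold in Treg over CD4 T cells, and 4.06% in Treg over CD8 T cells. Ccr4 met this rule in both comparisons. Ccr8 met it over CD8 T cells only, since it was below 2-fold over CD4 T cells. The share of genes higher in every library without the fold limit is not given here. The comparison with CD4 T cells did not keep its call when CD4 T cells with Il2ra or Ikzf2, genes that Treg carry, were taken out. The difference was then 0.79 for Ccr8 and 0.91 for Ccr4, in 5 of 6 libraries (exact p = 0.0625, adjusted p = 0.0729). The exception was the control library, left with 25 CD4 T cells, where Ccr8 was 118 CPM against 78.2 in Treg and Ccr4 58.8 against 31.3.

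**Figure D4:**
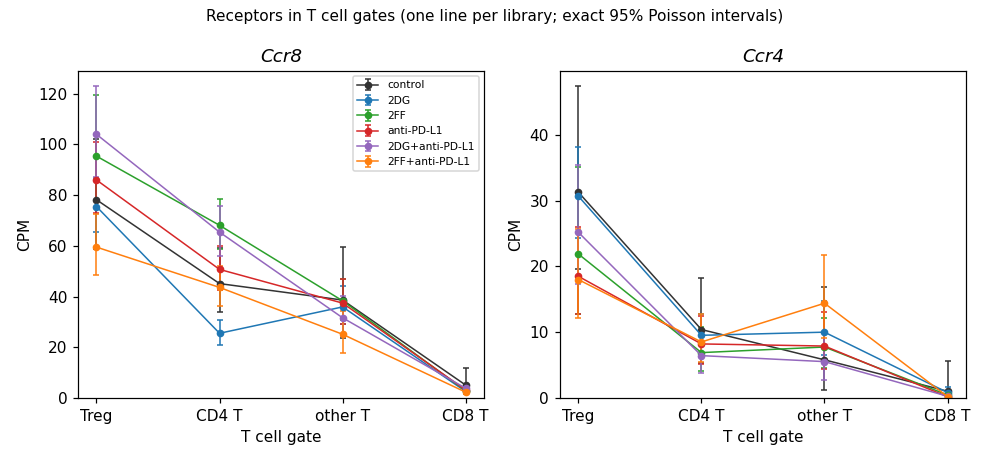
Ccr8 and Ccr4 level (CPM) in Treg, CD4 T, other T and CD8 T cells, with 1 line for each of 6 libraries and exact 95% Poisson intervals. Each line falls from Treg to CD4 T cells, and Ccr8 in CD8 T cells is between 2.26 and 5.04 CPM.

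The other chemokine receptors and the effector genes of Treg were read beside them. The Treg gate is set by Foxp3, so higher levels of Treg genes are partly given by the gating. Il2ra, Ctla4, Ikzf2, Tnfrsf18 and Icos of the effector list also served as its check genes. Of 20 Treg effector genes tested, 11 were higher in Treg than in CD4 T cells and 0 lower, with a median of 1.10 against -0.03 over all 11873 genes. Klrg1, an inhibitory receptor of differentiated cells (3.61 ± 0.45), and Itgae, an integrin chain of tissue T cells (3.50 ± 0.55), were highest, and Batf (-0.78 ± 0.32) and Entpd1 (-0.20 ± 0.30) lowest, without passing. Of 12 other chemokine and egress receptors, 11 were tested, with 4 higher, 1 lower and a median of 0.56. Ccr2 (2.12 ± 0.54) and Cxcr3 (1.13 ± 0.15) were higher, Cxcr6 lower (-2.95 ± 0.37), and Cxcr5 (-0.57 ± 0.28) did not pass.

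Detection of Ccr8 by Ccr4 went both ways among libraries. Pooled over libraries, a Ccr8 UMI was found in 32.6% of Treg with Ccr4 and 32.8% of those without, and in CD4 T cells in 25.7% and 20.6%. Treg with and without Ccr4 had 18.2% and 35.6% in control and 21.1% and 39.4% in 2DG plus anti-PD-L1, but 37.3% and 29.8% in 2DG. From 11 to 51 Treg per library had Ccr4, and the difference was not tested. Treg with a Ccr8 UMI (416 of 1268) were compared with the others of the same library, a comparison added after the data were seen. None of the 20 Treg effector genes was called higher (0.0208% of all genes were), with a median of 0.12. Tnfrsf4 (0.52) and Ebi3 (0.38), each higher in 6 of 6 libraries, were at the top, and Il10 (-0.72, higher in 0 of 6) and Nt5e (-0.26, in 2 of 6) at the bottom. Of the other receptors S1pr1, which lets T cells leave tissues, was lower in 6 of 6 libraries (-1.12). This rests on 33 S1pr1 UMIs in Treg with Ccr8 and 145 in those without. Ccr7 of the same list was higher in 6 of 6 libraries (0.63) without being called, from 233 and 289 UMIs. Itgae of the effector list differed by -0.07, higher in 3 of 6. The share of all genes called lower is not given here. In CD4 T cells 1 of 20 was called higher, Areg (1.04). It was also the only 1 called among all 11008 genes tested (0.00908%), so that share is no separate background. Cells with a Ccr8 UMI were the deeper ones in every library and gate, and the part of depth in these values was not tested.

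The ligands of CCR8 were highest outside the dendritic gates. Ccl1 in CD4 T cells was at 262 CPM in control, 197 in 2DG, 335 in 2FF, 166 in anti-PD-L1, 44.2 in 2DG plus anti-PD-L1 and 227 in 2FF plus anti-PD-L1. In the mature dendritic gate it was at most 1.67 CPM, while Treg had 0 to 28.7, CD8 T cells 1.01 to 48.4 and other T cells 5.01 to 150.4. Ccl8 in macrophages was at 108, 603, 869, 309.8, 776 and 517 CPM, and at most 19.3 CPM in mature dendritic cells. Of the scavengers, the protease gene Dpp4, whose product trims CCL22, was at a median of 351 CPM in mature and 216 in Cd209a dendritic cells (0.66 ± 0.41, in 5 of 6 libraries, not called), and the decoy receptor Ackr2 had 1 UMI in these gates together.

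The study asked what glycan inhibitors add to anti-PD-L1, a contrast of 1 library with 1 other that is described further below. The antibody itself was given with no inhibitor, with 2DG and with 2FF, so 3 libraries with it were set against 3 without. This comparison concerns the antibody and not what an inhibitor adds to it. For no member and gate did the 2 sets stand apart (0 of 12), although 11 of 12 mean differences were below 0. For Ccl17 the log2 differences were -0.67 in mature, -1.24 in Cd209a and -2.29 in type 1 dendritic cells and -1.13 in macrophages. For Ccl22 they were -0.49, -0.21, -0.98 and -0.26. Ccr8 differed by -0.02 in Treg and 0.26 in CD4 T cells, and Ccr4 by -0.36 and -0.13. With each library left out in turn, the Ccl17 difference ran from -2.20 (without 2FF) to -0.47 (without control) in Cd209a cells, from -4.01 (without anti-PD-L1) to -1.41 (without 2FF plus anti-PD-L1) in type 1 cells and from -2.11 (without anti-PD-L1) to -0.39 (without 2DG plus anti-PD-L1) in macrophages. The smallest exact permutation p was 0.2 (adjusted p = 0.6 over the 12), in a design whose smallest possible p is 0.1. Within the 3 pairs of libraries that share no inhibitor, 2DG or 2FF, the difference was below 0 in all 3 pairs for 3 of the 12, Ccl17 and Ccl22 in mature cells and Ccr4 in Treg. An exact sign-flip test of 3 pairs gave each of these 0.25, the smallest p it can give. The shares of all genes with a mean difference below 0, or below 0 in all 3 pairs, are not given here. Neither count is therefore read as a result about the members. Of all genes tested, the sets stood apart for 10.1% in mature dendritic cells, 14.7% in Cd209a cells, 12.1% in type 1 cells, 8.48% in macrophages, 9.42% in Treg and 10.2% in CD4 T cells.

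Single treatments can only be described, since a treatment and a mouse cannot be told apart here. In the mature gate the Ccl17 level of 2FF was 1.46-fold below control (log2 -0.54, 95% Poisson interval -0.70 to -0.39) and that of 2DG 1.06-fold above it (0.08, -0.05 to 0.21). The Ccl22 level of 2FF was 1.26-fold below control (-0.33, -0.45 to -0.20) and that of 2DG 1.24-fold above (0.31, 0.20 to 0.41). Against anti-PD-L1 alone, 2DG plus anti-PD-L1 differed in this gate by -1.01 (-1.22 to -0.81) for Ccl17 and -0.69 (-0.85 to -0.54) for Ccl22. The values of 2FF plus anti-PD-L1 were -0.75 (-0.94 to -0.56) and -0.46 (-0.60 to -0.32). For Ccl17 the 2 combinations differed from anti-PD-L1 alone by -1.66 and -1.05 in Cd209a cells, -5.59 and -5.67 in type 1 cells and -5.30 and -2.99 in macrophages. In the Cd209a gate the Ccl17 level of 2FF was 11.5-fold (-3.53, -3.79 to -3.27), that of anti-PD-L1 3.76-fold (-1.91, -2.06 to -1.76) and that of 2DG 2.23-fold below control (-1.16, -1.29 to -1.03). Within this gate other dendritic genes moved with it. In the order of libraries used above, Cst3, a gene of conventional dendritic cells, was at 7561, 4870, 2959, 2526, 1558 and 1604 CPM, Mgl2 at 1116, 684, 347, 366, 208 and 261, and Lyz2, a gene of monocytes and macrophages, at 122, 313, 954, 989, 1850 and 824. The gate held 68 cells in control and 217 in 2DG plus anti-PD-L1. The part of the gate's makeup in its Ccl17 level was not tested.

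Both combination libraries were lower than the other 4 for Ccl17 and for Ccl22 in the mature, type 1 and macrophage gates, a division looked at after the values were seen. In the mature gate their Ccl17 was at most 505 CPM against at least 691 in the other 4, and their Ccl22 at most 952 against at least 1129. In the type 1 gate the Ccl17 counts were 8 UMIs in 47 cells and 11 in 56 cells, at most 13.2 CPM, against 155 to 638 CPM from 78 to 143 cells. In macrophages Ccl17 was 1.73 and 8.54 CPM against 18.1 to 67.9, with 62 of the 121 UMIs of 2FF plus anti-PD-L1 in 1 cell. Ccl22 in macrophages was 1.15 and 0.988 CPM, from 16 and 14 UMIs, against at least 2.06, from 23 UMIs in 2DG. There the 95% Poisson interval of 2DG plus anti-PD-L1 against 2DG alone held 0 (log2 -1.86 to 0.14). In the Cd209a gate the combinations were not apart, as 2FF alone had 112 CPM of Ccl17 beside their 109 and 166. The share of all tested genes with both combinations below the other 4 was 10.3% in the mature gate, 12.5% in the type 1 gate and 15.8% in macrophages. In the mature gate none of the 10 other chemokines, 19 maturation genes and 9 inducers tested lay that way. Other genes of the gate did, with Cst3 at 6057 and 5319 CPM against at least 6619, Mgl2 at 33.3 and 15 against at least 36.9, and Plet1 at 0 in both against at least 28.3. Of the genes that define the gate, Ccr7 was 2577 and 2464 CPM in the combinations against 2014 to 2416, and Fscn1 1024 and 1504 against 1386 to 1742. The part of the gate's makeup in its Ccl17 and Ccl22 levels was not tested. In the type 1 gate Ccl6 lay below in both combinations among 10 other chemokines tested, Il12b and Il15 among 17 maturation genes, and Tnf and Csf2ra among 9 inducers. Above in both lay 2 other chemokines, 4 maturation genes and 0 inducers. In the mature gate 2 other chemokines, 1 maturation gene and 0 inducers lay above in both. The share of all genes above in both is not given here, so these counts have no background. Both combinations also had the fewest cells in both gates. The division held for all 6 member and gate pairs under 5 other settings of the gates and filters. A wider mature gate leaves macrophages unchanged. Gates without cells that have Ccr7, Fscn1 or Mgl2 leave the mature and macrophage gates unchanged, so agreement there was fixed in advance. With cells of up to 10% mitochondrial UMIs kept, Ccl17 in the type 1 gate of 2FF plus anti-PD-L1 was 98.1 instead of 12.5 CPM.

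**Figure D5:**
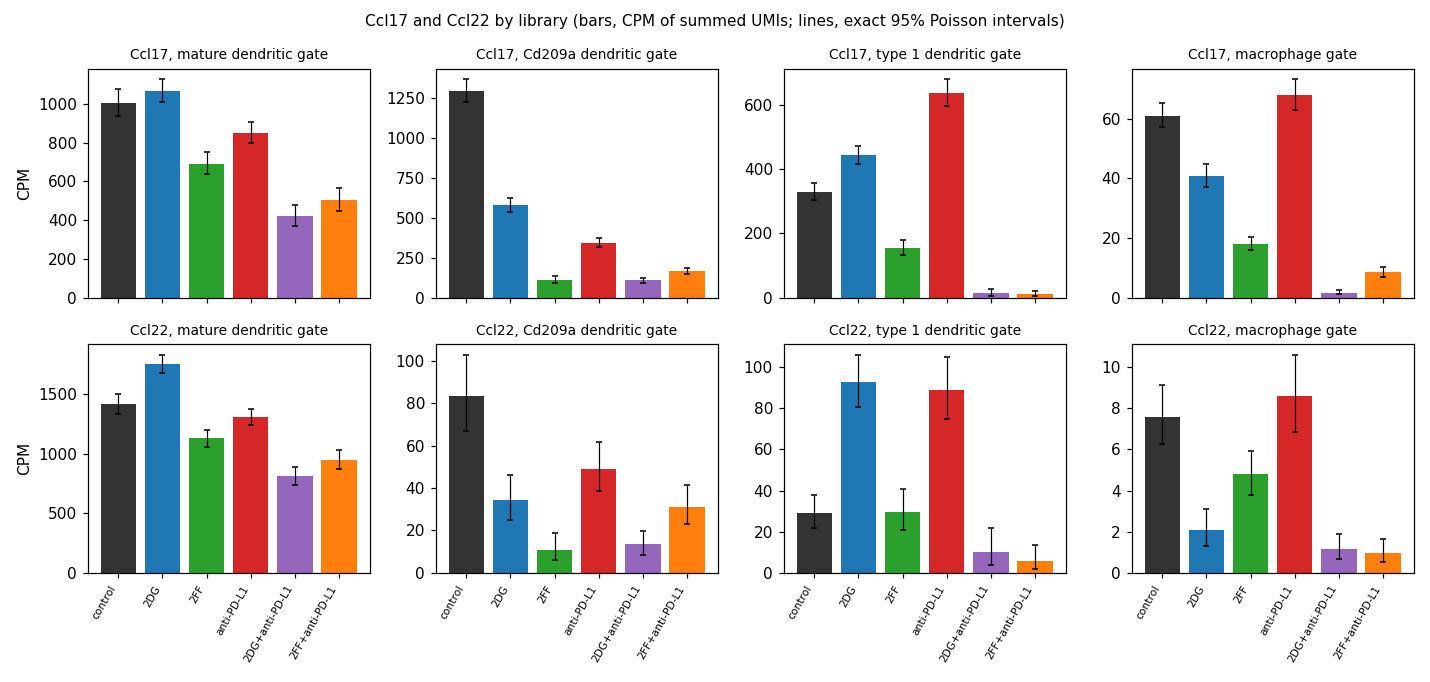
Ccl17 and Ccl22 level (CPM) in mature, Cd209a and type 1 dendritic cells and macrophages of each library, bars starting at 0, with exact 95% Poisson intervals that cover counting error only. Ccl22 stands at 810.4 to 1756 CPM in the mature gate, and Ccl17 in the Cd209a gate runs from 109 CPM in 2DG plus anti-PD-L1 to 1295 in control.

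For the receptors in Treg, every interval against control held 0. Ccr8 in Treg of the treated libraries ran from 1.31-fold below control in 2FF plus anti-PD-L1 (-0.39, -0.88 to 0.11) to 1.33-fold above it in 2DG plus anti-PD-L1 (0.41, -0.05 to 0.89). Between treated libraries, Ccr8 of 2FF plus anti-PD-L1 was below anti-PD-L1 (-0.53, -0.91 to -0.16) and below 2FF (-0.68, -1.13 to -0.23). That of 2DG plus anti-PD-L1 was above 2DG (0.46, 0.13 to 0.78), but its interval against anti-PD-L1 held 0 (0.27, -0.07 to 0.61). Of the 5 intervals for Ccr4 in Treg, the widest, of 2FF, reached from -1.52 to 0.47. In CD4 T cells Ccr8 was 1.77-fold below control in 2DG (-0.82, -1.31 to -0.32), 1.51-fold above it in 2FF (0.60, 0.15 to 1.07) and 1.45-fold above it in 2DG plus anti-PD-L1 (0.54, 0.08 to 1.01). Intervals of this width do not show that the libraries were alike.

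Genes whose levels ran most like each member were ranked over 74 sums of gate and library, among 14382 genes, as a description of sums that share libraries and gates. For Ccl17 they were Nectin1 (r = 0.94), Fnbp1l (0.91), Adam23 (0.91), Rtn1 (0.90) and Casr (0.89), and for Ccl22 Arhgap28 (0.93), Arhgef40 (0.92), Tmem39a (0.92), Strip2 (0.91) and Il12b (0.91). For Ccr4 they were Izumo1r (0.97), A630023P12Rik (0.96), Gm3468 (0.96), Ncmap (0.95) and Gm28112 (0.95), and for Ccr8 Izumo1r (0.98), A630023P12Rik (0.96), Itgb8 (0.96), Bmp7 (0.96) and Tnfrsf25 (0.95). Izumo1r, the folate receptor 4 gene of Treg, led both receptor lists, and no gene was on both chemokine lists. Ccl17 and Ccl22 themselves had r = 0.87, and Ccr4 and Ccr8 r = 0.96.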

How the data were processed

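Single-cell libraries of 6 mice were made with a 10x 3' kit, and samples were grouped by the treatment in their labels. The authors deposited raw UMI counts of every gene in each called barcode, made by aligning reads to mm10. The matrix headers name Cell Ranger 7.0.0 and the submitters' processing notes 3.1.0. The study's limits, at least 250 genes and at most 5% mitochondrial UMIs, were applied here.

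The 4 genes, the gates and the gene lists were chosen with earlier results of these data known. Cells were gated by marker UMIs in a set order (for example C1q at least 10 per 10000 UMIs for macrophages), and a gate entered a test with at least 20 cells per library. Sums were expressed as CPM and compared as log2(CPM + 5). Fold changes on that scale understate those of low genes. Populations were compared within mice by an exact sign-flip permutation test over 6 libraries, and 3 libraries with anti-PD-L1 against 3 without by an exact permutation test. Other genes needed at least 50 UMIs to be tested and 200 to be ranked for likeness. Counts of single libraries have exact Poisson and shares exact Clopper-Pearson intervals (95%), which cover counting error only. A count of 0 allows 3 counts. From each list 4 genes are named, 2 at the top and 2 at the bottom of the mean difference, and any others singled out were chosen after their values were seen.

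Doublets were scored by simulation and 531 to 773 cells per library marked (0.8% per 1000 cells). They were kept in the values reported and removed in an alternative. The other alternatives were stricter gates, up to 10% mitochondrial UMIs, a pseudocount of 1, another scaling, the mean of cells, thinning, 10 cells as minimum, other dendritic and CD4 T gates, antibody pairs that share an inhibitor (added after the data were seen), no filter on low counts and leaving out each library. Promoters came from RefSeq and matched all 4 genes. Cell names assigned in the study were not analysed here. Python 3.11.15, numpy 2.4.6, pandas 2.3.3, scipy 1.17.1, scanpy 1.11.5 and matplotlib 3.10.9 were used, and the tests were checked on simulated data.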

Additional observations from a re-analysis of the deposited data

Results flagged for a closer look

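By summed level, the change of Ccl17 and Ccl22 with anti-PD-L1 had opposite signs without and with a glycan inhibitor in 2 gates. On the log2 scale, type 1 dendritic cells differed in Ccl17 by 0.94 between anti-PD-L1 and control, by -4.62 between 2DG plus anti-PD-L1 and 2DG, and by -3.19 between 2FF plus anti-PD-L1 and 2FF. With cells of up to 10% mitochondrial UMIs kept, the last of these was -0.61. For Ccl22 in the same gate the values were 1.46, -2.71 and -1.69, and without marked doublets 0.32, -1.49 and -1.77. In macrophages they were 0.14, -2.77 and -0.77 for Ccl17 and 0.11, -0.20 and -0.71 for Ccl22. With stricter gates the macrophage values without an inhibitor were below 0 too, with 60 CPM of Ccl17 in control and 53.4 in anti-PD-L1, and 9.3 and 6.18 CPM of Ccl22, so the signs were then alike. Macrophages with a Ccl17 UMI were 4.07% in anti-PD-L1 against 5.74% in control, and 1.64% against 2.22% when thinned. For type 1 cells the shares were 31.7% against 40.9%, and 18.6% against 14.8% when thinned. The 95% Poisson intervals of the log2 ratio of Ccl22 in macrophages held 0 for anti-PD-L1 over control (-0.24 to 0.60) and for 2DG plus anti-PD-L1 over 2DG (-1.86 to 0.14). That of Ccl17 in macrophages for anti-PD-L1 over control reached 0 (0.00 to 0.30). Each value compares 1 library with 1 other, so the difference between them was not tested.

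Cells that no gate took held 31.4% of the Ccl17 UMIs and 33% of the Ccl22 UMIs. A wider mature gate left 22.8% and 22.1% outside.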

How the results depend on the processing

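Of 128 values of the comparisons between populations under other settings, 120 kept their direction and their side of the threshold. Of 116 values of the antibody comparison, 113 kept their direction. The antibody test cannot give a p below 0.1, so its side of the threshold was fixed in advance. Every gate tested held at least 47 cells per library, so agreement with 10 cells as minimum was fixed too. Ccl22 in Cd209a against type 1 dendritic cells changed sign with stricter gates (-0.13), with up to 10% mitochondrial UMIs (-0.02), with gates that leave out cells with Ccr7, Fscn1 or Mgl2 (-0.20, chosen after seeing the data), as a mean of cells (-0.03) and as a thinned share (-0.01). Treg against CD4 T cells without Il2ra or Ikzf2 gave 0.79 for Ccr8 and 0.91 for Ccr4, no longer past the threshold. The wider mature gate brought Ccl17 against Cd209a cells past it (1.07). In the antibody comparison, Ccr4 in CD4 T cells turned to 0.33 with stricter gates, Ccl22 in macrophages to 0.06 without marked doublets, and Ccr8 in CD4 T cells to -0.31 without Il2ra or Ikzf2. The cause was not tested in any of these. With no filter on low counts more genes entered, and 1329 instead of 762 stood apart with anti-PD-L1 in mature cells, 2028 instead of 1318 in Cd209a cells and 1407 instead of 906 in Treg, and 1252 instead of 775 lay below in both combinations in mature cells. With each library left out in turn, values given without a test kept their sign except Ccl22 in Cd209a against type 1 cells (-0.31 to 0.31), and with anti-PD-L1 Ccl22 in Cd209a cells (-0.84 to 0.39) and Ccr8 in Treg (-0.19 to 0.18) and CD4 T cells (-0.07 to 0.56). No paired analysis by replicate number was possible because the labels give none, and pairs that share an inhibitor left the 12 means as they were, with p of at least 0.25. Counts limit Ccr4 most, with 12 to 43 UMIs per library in CD4 T cells.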

Other observations

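Among the 10235 cells that no gate took, those with a Ccl22 UMI were higher in the 2 genes that set the mature gate. Their Ccr7 was 930.5 CPM against 27.3 in the other ungated cells and their Fscn1 407 against 5.63. Their Mgl2 was also higher, at 418 against 67.4 CPM, as was Plet1, at 127 against 20.5. The mature gate itself had 2014 to 2577 CPM of Ccr7, 15 to 53.8 of Mgl2 and 0 to 69 of Plet1, so these ungated cells as a pool differed from it. The 462 ungated cells with a Ccl17 UMI had 619.6 CPM of Mgl2 against 46, 223 of Plet1 against 10.8 and 569.6 of Ccr7 against 53.7. Monocytes held 5.81% of the Ccl17 UMIs, in 103 of 10103 cells (1.02%), and 1.09% of those of Ccl22. Neutrophils held 1.38% and 1.01%. B cells had no Ccr8 UMI in 1459 cells. These values are descriptions of pooled cells and were not tested.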
